A study of Ovis aries with 16 samples.

Results

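The data described here are the left ventricles of the 8 untreated sheep fetuses among 16 whose hearts were assayed by microarray. They were chosen by their sample titles, which name 4 as controls of the losartan arm and 4 as controls of the angiotensin II arm. The study paired twins: 1 fetus of each of 8 pairs received an infusion for 5 days, from catheterisation at 125 to 126 days of gestation (term 145), and the other received none. In twin sets 1 to 4 the treated twin received losartan, a blocker of the type 1 angiotensin II receptor, and in sets 5 to 8 it received angiotensin II. Every fetus described below therefore shared its uterus with a treated twin, and the labels do not say whether the untreated twin was itself catheterised. Breed and genotype are not given, and the labels differ among themselves on the infusion (daily or continuous) and on the tissue (free wall, with or without septum). Fetuses are named here by twin set.

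The left ventricle shortly before birth is still growing, in part by division of its muscle cells, and will soon have to leave that programme as birth approaches. It burns mainly glucose and lactate, and the shift to fatty acids follows birth. Around its muscle cells lie endothelium, vascular smooth muscle, fibroblasts and blood, so a probe on bulk tissue reads them all at once, and fewer cells of a type cannot be told apart from less RNA per cell.

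Values are the log2 signal of a probe (a spotted 60-base sequence) minus the 75th percentile of its array, so 0 stands for a signal as bright as that percentile and each unit is a doubling. The percentile ran from 1101 to 1575 fluorescence units over the 8 arrays, and 8598 to 9490 of 15008 probes were called well above background on an array. Only 1783 probes carried a gene name, and they stood for 1051 genes, each represented by its brightest probe. Many familiar heart genes are thus not analysed here. Each group held 4 arrays, which limits the precision of every comparison. The labels name separate fetuses, so the spread between arrays includes that between animals.

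The array of set 2 stood apart from the other 7. Pairs of arrays correlated at 0.955 to 0.992 over 28 pairs, and the lowest was 0.981 without set 2. Its score on principal component 1, which held 44.3% of the variance, was 41.8 and those of the others were -15.7 to 0.58. Set 2 lay more than 1 log2 unit above all other 7 for 117 probes and below them for 37, while set 8 did so for 1 and 28 probes and each other set for at most 2 and 3. The treated twins of sets 7 and 8, hybridised in the same row of slide 2, lay past the same 7 untreated arrays in 112 and 113 of the 117 probes and in 35 and 32 of the 37. The other treated arrays did so in 4 to 31 and in 3 to 10, among them the remaining array of that row, treated set 4, in 31 and 7. Bright corner spots, controls without sheep sequence, read 17.69 in log2 signal on set 2 and 14.47 to 15.21 on the 13 arrays outside that trio. Results that rest on set 2 are given with and without it below.

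Slightly under 50% of the named genes had a measured level in every untreated ventricle. Of 1051 genes, 502 (47.8%) were well above background on all 8 arrays, 411 (39.1%) on none and 138 (13.1%) on some, 27 of those on 7. Over all probes the counts were 8287 (55.2%), 4946 (33.0%) and 1775 (11.8%).

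**Figure D1:**
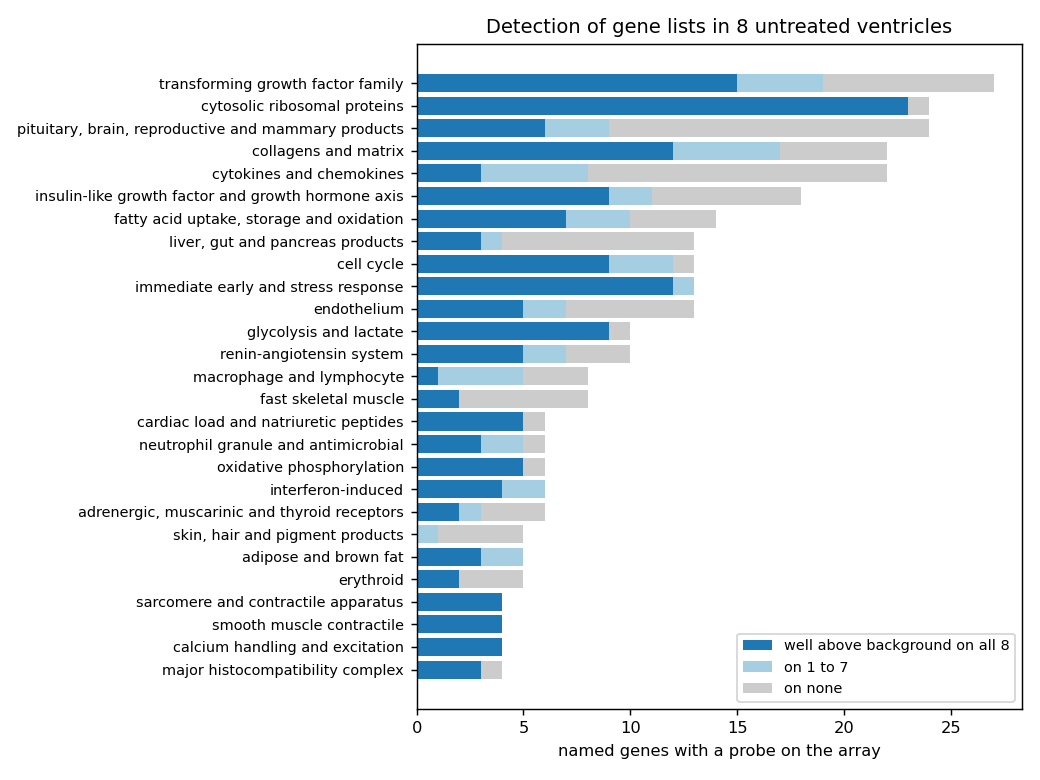
Named genes of each list by whether their probe was well above background on all 8 untreated arrays, on some or on none. All 4 sarcomere genes and 23 of 24 ribosomal genes were measured on all 8, while 14 of 22 cytokines and 15 of 24 pituitary, brain, reproductive and mammary genes were measured on none.

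Most genes of muscle contraction and its ion balance differed little between fetuses. All 4 sarcomere genes on the array were measured in every fetus. TPM1, the tropomyosin that gates actin, lay at 6.13 to 6.53 (median 6.19). CRYAB, a chaperone of the sarcomere, lay at 6.23 to 6.91. FHL1, a scaffold at the sarcomere, lay at -1.26 to -0.20. In these 3 genes no fetus lay more than 1 log2 unit past all others. MYH7, the slow myosin heavy chain, ran from 1.19 to 3.06, with set 2 at the top by 1.52. Its SD was 0.62 over 8 arrays and 0.13 without set 2, so the 7 other fetuses were close together. Myoglobin (MB), the oxygen store of heart and slow muscle, had a median of 5.98 (range 5.86 to 6.25).

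All 4 genes of the calcium and excitation list were also measured. GJA1, which forms the gap junctions between ventricular cells, had a median of 5.52, and ATP1B1, a subunit of the sodium pump, one of 5.54. GJA1 was lowest in set 2 (4.88) and ATP1B1 highest in set 8 (5.79). Among the load genes, RCAN1, an inhibitor of calcineurin, lay at 1.73 to 2.55 and CKB, brain-type creatine kinase, at 0.64 to 1.15. NPPC, a natriuretic peptide of endothelium, was well above background on no array.

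The renin-angiotensin list, the system the study perturbed, had 5 of 10 genes measured in every untreated fetus. AGTR1, the receptor that losartan blocks, had values of 2.10, 1.77, 1.68, 0.78, 0.90, 1.21, 1.47 and 0.50 in sets 1 to 8, and sets 1 to 3 were the highest. AGTR2, the second receptor of the peptide, lay at -2.51 to -0.92 with its lowest value in set 1. The SDs of the pair were 0.55 and 0.56, against a median of 0.228 over the 502 named genes. NR3C2, the mineralocorticoid receptor, was steadier at 2.09 to 2.73. NOX5, an oxidase, had a median of 0.73, and HSD11B1, which regenerates cortisol, one of -0.79. NR3C1 (glucocorticoid receptor) was well above background on 2 arrays, and ACE, HSD11B2 and NOX4 on none. A dim probe sets no bound on a protein, since a poorly binding probe reads dim too.

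Receptors for adrenaline and thyroid hormone were dim. ADRB1, the main cardiac beta receptor, lay at -2.76 to -1.56, and THRB, a thyroid hormone receptor, at -3.21 to -2.26. ADRB3 was well above background on 3 arrays, and CHRM3, THRA and TSHR on none.

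Energy genes covered both fuels. Of the glycolysis list 9 of 10 were measured, among them GAPDH (median 5.15), the glucose transporter of high affinity SLC2A3 (5.08), muscle enolase ENO3 (4.11) and LDHA (3.97). SLC2A1 was measured on none. Of the fatty acid list 7 of 14 were measured, with LPL, which frees fatty acids from lipoproteins, at a median of 4.08 and CPT1B, the muscle gate for entry of fatty acids into mitochondria, at 1.56. CPT1A and PPARA were well above background on 2 and 3 arrays, and FASN, ACACA, SCD and UCP3 on none. The levels belong to different probes, so they do not rank the fuels.

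Supporting cells were visible in part. Of the 13 endothelial genes 5 were measured on all arrays, led by CAV1 (median 2.38) and PECAM1 (1.92, SD 0.13), while FLT1, TEK, EDN1, ICAM1, SELE and SELP were on none. All 4 smooth muscle genes were measured. Of the collagen and matrix list 12 of 22 were measured, with the proteoglycan DCN at 4.95 to 5.59 and COL3A1 at 3.80 to 4.61. Of the macrophage and lymphocyte list 1 of 8 genes (CD3G) was measured on every array, and of the cytokine list 3 of 22 (CXCL1, IL18, CCL25). Another 4 and 5 were well above background on some arrays, among them CD3E, IL1B and IL12A on 7. The remaining 3 and 14 were so on none. Other immune lists had a larger share measured on every array: 3 of 6 neutrophil granule genes and 3 of 4 of the major histocompatibility complex. Over all named genes 47.8% were measured on every array and 39.1% on none. IGF2, the main fetal growth factor of this axis, was among the brightest outside the top 20 at 6.09 to 6.56, whereas IGF1 was well above background on 2 arrays.

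The brightest named genes were mostly those of protein synthesis, energy supply and the cytoskeleton. The 20 brightest had means of 6.53 and more, at least 92.4 times the 75th percentile, and 9 of the 20 are ribosomal proteins. FTH1, the heavy chain of ferritin, read 7.76, 7.68, 7.45, 7.42, 7.50, 7.34, 7.42 and 7.61 in sets 1 to 8, a mean of 7.52 ± 0.14 (SD, n = 8). No fetus stood apart in it. Also among the 20 were RPL6, UBB, RPL11, H3F3A, ATP5MC1, RPS25, RPS2, PPIA, RPS12, VIM, SLC25A4, ACTG1, RPS27A, YBX1, RPL27A, TPT1, CRYAB and RPS20. ATP5MC1, a subunit of the mitochondrial ATP synthase, had a mean of 7.10 ± 0.30 and SLC25A4, the muscle carrier that exchanges ADP and ATP, one of 6.73 ± 0.28. Probe brightness depends on probe sequence, so this order is one of signals and not of transcript amounts.

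Most of these genes varied little. Their SDs ran from 0.11 to 0.30 (median 0.168, against 0.228 over the 502 named genes), ATP5MC1 and SLC25A4 lying above that median, and none of the 20 fell below place 25 on any array. VIM, the intermediate filament of fibroblasts and endothelium, was lowest in set 8 at 6.27 against 6.76 to 6.94 in the other 7. The ribosomal list had a median SD of 0.190 over its 23 measured members, and RPL32 was measured on no array. Of the 23, RPS23 and RPL13A had SDs over 0.5, RPL13A through set 2. RPS23 had values of 2.56, 2.81 and 2.62 in sets 1, 2 and 6 and of 0.94 to 1.26 in the other 5, with a gap between them. The treated twins of sets 1 and 2 read 2.55 and 2.58, and the other 6 treated fetuses 0.78 to 1.45, set 6 included at 0.94.

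**Figure D2:**
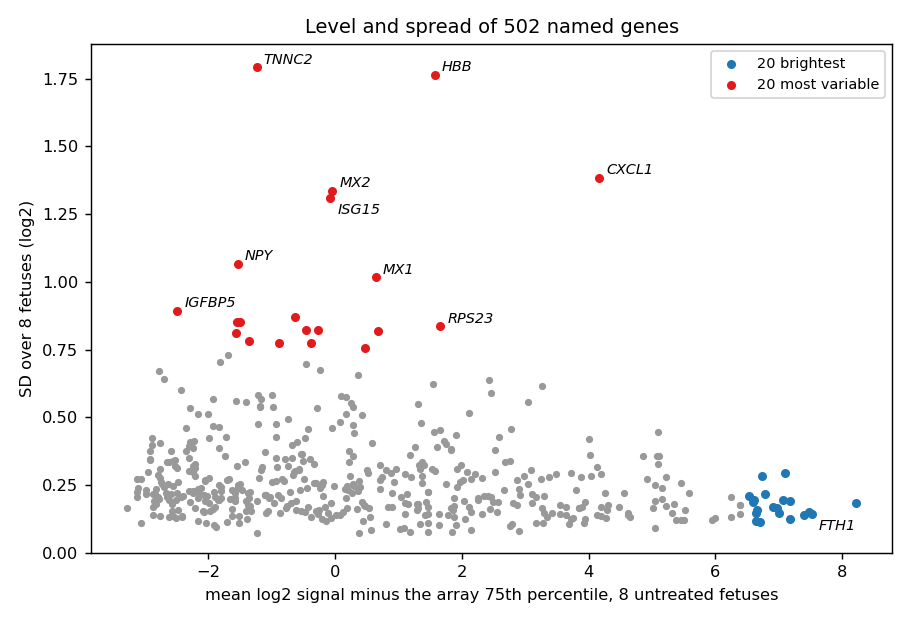
Mean log2 level against SD over the 8 untreated arrays for the 502 named genes measured on all 8. The brightest genes sit at the right with low SDs, and TNNC2, HBB and CXCL1 have the largest.

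Most genes varied little among the 8 fetuses, and a small set varied widely. The median SD of the 502 genes was 0.228 (0.197 without set 2), the median range was 1.62-fold, 54 (10.8%) had an SD over 0.5 and 7 an SD over 1. Without set 2 the genes over 0.5 numbered 34. The genes below were chosen for their spread, so it is described and not tested. Of the 20 most variable, 11 were highest in set 2 and 5 lowest in set 8. Over all 502 named genes, 200 (39.8%) were highest in set 2 and 84 (16.7%) lowest in set 8.

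TNNC2, the calcium sensor of fast skeletal muscle, had the largest SD of the 502 genes measured on all 8 arrays. Its values were -2.33, 1.85, -2.21, 1.34, -2.44, -2.28, -2.51 and -1.31 in sets 1 to 8. Sets 2 and 4 were high and the other 6 low, and all 8 treated fetuses lay between -2.50 and -1.07. The SD was 1.79 over 8 arrays and 1.39 without set 2. A second probe, shifted by 1 base, gave 1.88 and 1.29 in the same 2 fetuses and -2.46 to -1.41 in the others. The pair is printed because both probes show the split. Sequences come from the deposited scanner files, 5′ to 3′, and the capital marks the base that the other probe lacks.

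TNNC2 first probe: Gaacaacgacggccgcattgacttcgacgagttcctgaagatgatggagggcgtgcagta
TNNC2 second probe: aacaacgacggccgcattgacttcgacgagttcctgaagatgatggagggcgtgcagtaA

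Of the other skeletal muscle genes on the array, MYH1, MYH2, MYOD1, MYOG, MYF5 and MSTN were well above background on none of the 8 arrays. MB was highest in the 2 fetuses where TNNC2 was high, though its SD was only 0.13. The part of skeletal muscle cells in the split was not tested beyond these values.

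HBB, the adult-type beta globin chain of red cells, had the widest range of the 502 genes, 41.8-fold. Its values were 0.50, 2.38, -2.01, 1.97, 2.63, 3.38, 2.98 and 0.74 in sets 1 to 8. It was lowest in set 3, low in sets 1 and 8 and high in the other 5, and the treated fetuses spanned -0.87 to 3.63. A separate probe that matches HBB and another globin entry gave -0.58 in set 3 and 3.77 in set 6. Of the erythroid list, HBBF, AHSP and EPO were on none of the arrays, and EPOR, the erythropoietin receptor, lay at -3.39 to -2.38. The amount of blood in each sample was not measured.

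CXCL1, a chemokine that draws neutrophils, was high in 1 untreated fetus. Set 2 read 7.45 and the other 7 read 2.85 to 4.09. Its SD fell from 1.38 to 0.43 without set 2. The treated fetuses of sets 7 and 8 read 7.25 and 7.24, and the other 6 treated 3.21 to 4.37. These are the values of the brighter probe, the second of the pair below. The first gave 7.56 in set 2 and 3.01 to 3.85 elsewhere, so the 2 sequences, which share 59 of 60 bases, showed the same array apart.

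CXCL1 first probe: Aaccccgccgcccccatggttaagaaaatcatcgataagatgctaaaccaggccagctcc
CXCL1 second probe: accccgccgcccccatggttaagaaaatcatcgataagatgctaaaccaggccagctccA

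Several other variable genes owed their place to set 2. SLC16A1, a lactate carrier, read 1.39 there against -1.50 to -0.56. HK1, the first enzyme of glycolysis, read 1.40 against -1.14 to -0.15. IGFBP5, which binds the insulin-like growth factors, read -0.55 against -3.27 to -2.06. PTGER1, a prostaglandin E receptor, was the reverse at -3.53 against -1.67 to -0.75. In all, 17 named genes set this fetus apart by more than 1 log2 unit, 16 above (COL4A1, COL1A1, MYH7, RPL13A, RPL34, JUN, BCL2, DERL1, PPP1R12A, DKC1, CSNK1E and GLRX besides those named) and PTGER1 below. In 16 of the 17, GLRX being the exception, both treated fetuses of sets 7 and 8 lay on the same side of the other 7 untreated arrays. Without set 2, 14 of the 20 most variable genes remained, and CATHL3, CCNB1, HMMR, SQLE, CNN1 and INHBA entered.

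**Figure D3:**
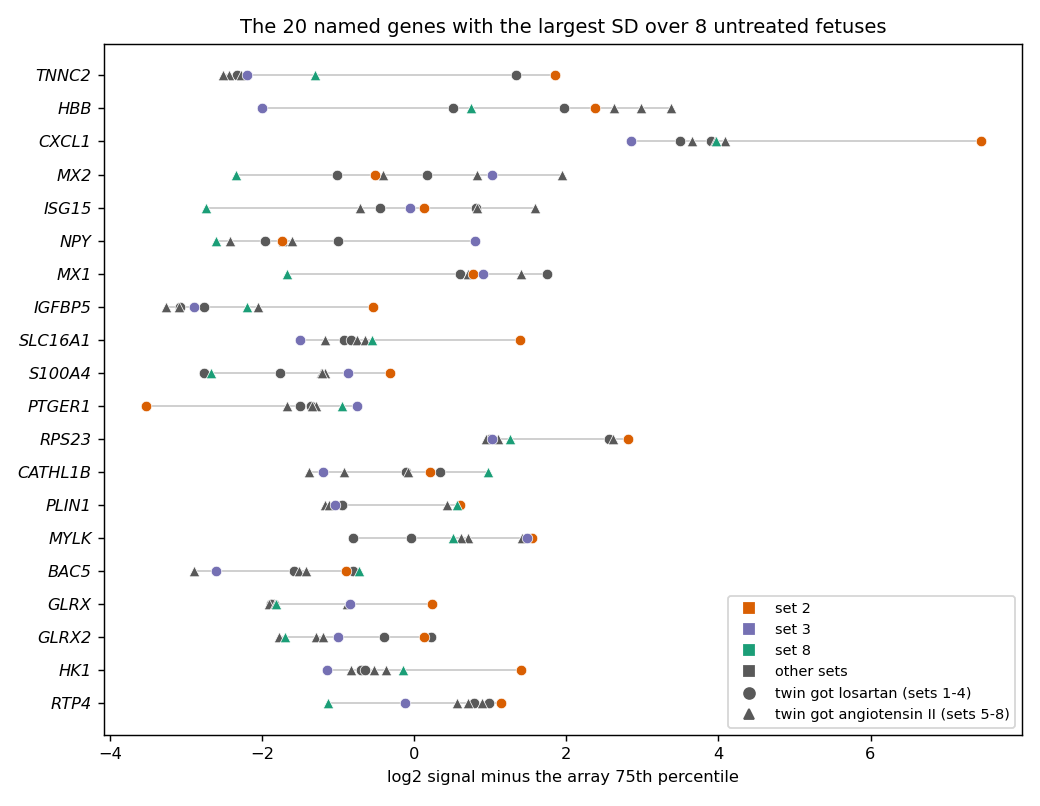
Values of the 20 most variable named genes in each of the 8 untreated fetuses, as log2 signal minus the array 75th percentile, with circles for twins of losartan-treated and triangles for twins of angiotensin II-treated fetuses and colours for sets 2, 3 and 8. Single fetuses stand apart in many rows: set 2 for CXCL1, SLC16A1 and HK1, set 8 for MX1 and ISG15, sets 2 and 4 for TNNC2.

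Genes induced by interferon were low together in set 8. MX1, an antiviral GTPase, read -1.67 in set 8 and 0.60 to 1.74 in the other 7. MX2, its paralogue, read -2.34 against -1.02 to 1.94, and ISG15, a ubiquitin-like modifier, read -2.74 against -0.71 to 1.59. Set 8 was the lowest for each, and the other fetuses differed among themselves by more than 1 log2 unit as well. RTP4 read -1.13 against -0.13 to 1.14. CXCL10, an interferon-induced chemokine, read -3.58 in set 8, where it was not well above background, and -1.25 to 0.63 elsewhere.

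The treated twin of set 8 was low too, at -1.53 for MX1, -2.48 for MX2 and -2.61 for ISG15. The highest of all 16 fetuses was the treated twin of set 6, at 3.1, 3.28 and 3.51, whose untreated twin read 0.70, 0.83 and 0.82. Of the interferon list, 3 of 4 measured genes were lowest in set 8, against 16.7% of the 502 named genes.

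Most measured genes of the cell cycle list were lowest in the same fetus. CCNB1, the cyclin of mitotic entry, read -1.81 in set 8 and -0.40 to 0.35 in the other 7. CDK1, its partner kinase, read -2.69 against -1.52 to -0.86. TYMS, an enzyme of thymidylate synthesis, read -1.58 against -0.28 to 0.09. Set 8 thus lay below the other untreated fetuses for all 3. The 4 losartan-treated fetuses read -3.43 to -1.48 for CCNB1, -4.09 to -2.75 for CDK1 and -2.71 to -1.43 for TYMS. The 4 angiotensin II-treated fetuses read -0.44 to 1.43, -1.95 to -0.22 and -1.07 to 0.73, and the treated twin of set 8 was the lowest of them for each.

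HMMR, a spindle protein, read 1.07 against 2.08 to 3.17, and PCNA, the replication clamp, -0.38 against 0.07 to 0.37. CCNA2 and ASPM were well above background on all untreated arrays but that of set 8. Of the 9 measured cell cycle genes 6 were lowest in set 8, against 16.7% of the 502 named genes, and the rest were lowest in other sets. CCND2, CDK2 and CDK4 were also among the 9. CDKN1B, an inhibitor of the cycle, was among the 9 and spanned -2.09 to -1.49. Among the untreated arrays PMCH, a neuropeptide precursor outside the list, was also not well above background in set 8 alone (-4.99). It read -5.73 to -3.72 in the losartan-treated fetuses and -3.82 to -0.77 in the angiotensin II-treated ones.

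ASIP, the agouti signalling protein known for pigment type, was measured in every fetus of the study but 1. Its values were 4.18, 3.99, 4.21, 4.14, 2.61, 4.38, 3.48 and -5.57 in sets 1 to 8. The probe was well above background on 7 untreated arrays and on 8 of 8 treated ones, and not in set 8. Against the dimmest signal that still counts as detected, set 8 was at least 166-fold lower than the mean of the other 7 (3.86 ± 0.62, SD, n = 7). A second probe read -5.79 in set 8 and 0.62 ± 0.64 in the other 7, a difference of at least 17.7-fold. The treated twin of set 8 read 3.49 on the first probe. Set 5 was the lowest of the other 7 on both probes.

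**Figure D4:**
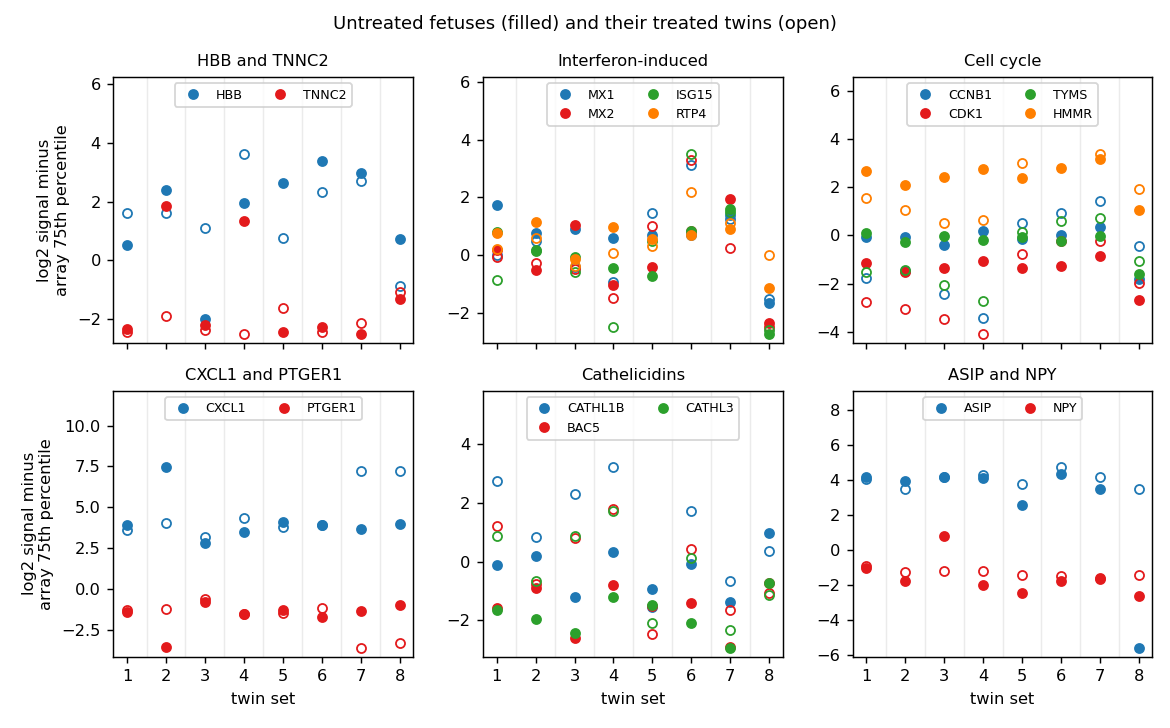
Log2 levels in the untreated fetus (filled) and its treated twin (open) of each set for genes that varied. Among untreated fetuses, set 8 is lowest in the interferon and cell cycle panels and for ASIP, and CXCL1 is high in untreated set 2 and in treated sets 7 and 8.

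Antimicrobial peptides of neutrophil granules varied alike at their extremes. CATHL1B read -0.10, 0.21, -1.21, 0.34, -0.93, -0.08, -1.39 and 0.97 in sets 1 to 8. BAC5 ran from -2.91 to -0.73 and CATHL3 from -2.94 to -0.72. All 3 were highest in set 8 and lowest in set 7, with set 3 the second lowest. The order in between differed: set 5 lay above sets 1, 2 and 6 for CATHL3 (-1.48) and below them for CATHL1B (-0.93). They are close relatives within the cathelicidin family, so a probe for one may bind the RNA of another. SC5, another cathelicidin, was well above background on 5 arrays, and LTF, of neutrophil granules too, on none.

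NPY, a peptide of sympathetic nerves, read 0.80 in set 3 and -2.61 to -1.0 in the other 7. A second probe that shares 57 of its 60 bases read 0.85 in set 3 and -3.41 to -1.92 elsewhere. Both placed set 3 above the others, and no treated fetus reached it on the first probe (-1.66 to -0.91). The 2 probes differed on other fetuses, such as set 2 (-1.74 against -3.41) and set 4 (-1.97 against -3.19). S100A4, a calcium-binding protein of motile cells, was low in sets 1 (-2.76) and 8 (-2.68) and at -1.77 to -0.32 elsewhere.

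The contractile genes of smooth muscle did not move as one. MYLK, the kinase that starts smooth muscle contraction, read -0.80, 1.55, 1.48, -0.05, 0.71, 0.61, 1.42 and 0.51 in sets 1 to 8, and its second probe followed with -2.03 in set 1 and 0.11 in set 2. CNN1, which restrains actomyosin, was lowest in set 6 (2.09) and highest in set 8 (4.13). MYL9 and MYL6 were steady, with SDs of 0.22 and 0.15.

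Of the 5 adipose genes on the array, PPARG and FABP4 were higher in the same 3 fetuses, and UCP1 was detected in 2 of these. PPARG, the master regulator of fat cells, read -0.14, -0.69 and -0.97 in sets 6, 5 and 4 and -1.65 to -1.33 in the other 5. FABP4, a fatty acid carrier of fat cells, was well above background in the same 3 fetuses (-0.35, -2.34 and -1.98) and in no other. UCP1, the uncoupler of brown fat, was so in sets 5 and 6. LEP (leptin) did not follow: it read -2.88, -2.74 and -3.1 in sets 4 to 6, set 6 and set 2 being the lowest of the 8, and was highest in set 8 (-2.55). ALB (albumin) was well above background only in set 6, at -0.82.

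PLIN1, the coat protein of fat droplets, followed the slide and not these 3 fetuses. The untreated fetuses of slide 2 (sets 2, 5 and 8) read 0.59, 0.43 and 0.56, and those of slide 1 read -1.18 to -0.95. The 5 treated arrays of slide 2 read 0.28 to 0.72 and the 3 of slide 1 -1.14 to -1.08. Removing slide means lowered its SD from 0.82 to 0.10. These are the values of the second probe below. The first, which shares 59 of 60 bases with it, lay at -1.40 to -1.09 on all 8 arrays (SD 0.11), so the pair disagree although only an end base of each differs.

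PLIN1 first probe, even on both slides: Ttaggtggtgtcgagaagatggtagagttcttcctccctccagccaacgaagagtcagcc
PLIN1 second probe, higher on slide 2: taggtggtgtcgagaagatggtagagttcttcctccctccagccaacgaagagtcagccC

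Such disagreement was rare. The SD of the difference between probes was taken in 124 pairs of overlapping probes, in 121 genes. It was 0.10 at the median, over 0.25 in 8 and over 0.5 in 3. PLIN1 was the largest at 0.753, and NPY the next at 0.638. Over all probes measured on every array, 51 differed by more than 1 log2 unit between slides without overlap (42 higher and 9 lower on slide 2), against a median absolute difference of 0.165. Named genes among those past 1 log2 unit were PLIN1, PRLH, CXCL1, IGFBP5 and HK1, of which CXCL1, IGFBP5 and HK1 were highest in set 2, an array of slide 2.

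Most genes of other organs on the array were dim. Of 24 genes for pituitary, brain, reproductive and mammary products 15 were measured on no array, including PRL, GH, FSHB, CGA and TSHB, and 6 on all 8 (NPY, POMC, OXT, CSN2, LHB and ESR1). Of 13 genes for liver, gut and pancreas 9 were on none, including TTR and SERPINA1, and 3 on all 8 (TF, APOA1 and CYP17A1). Over all named genes 39.1% were on none and 47.8% on all 8. KRT27, KRT85, KRTAP8-1 and TYR, of skin and pigment, were on none, in contrast to ASIP. LHB, a pituitary gonadotropin chain, read 3.47 to 3.88 and ESR1, an oestrogen receptor, -1.66 to -1.22.

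The 2 control groups were then set against each other, untreated twins of angiotensin II-treated fetuses minus untreated twins of losartan-treated ones. No probe passed. Of 8835 probes tested in limma, 0 (0%) had a Benjamini-Hochberg adjusted p under 0.05, the smallest being 0.201. At an unadjusted p under 0.05 there were 297 probes (3.36%), 137 (1.55%) higher and 160 (1.81%) lower in the twins of angiotensin II-treated fetuses. Of 545 named genes tested 0 passed, and 19 had an unadjusted p under 0.05, 4 higher and 15 lower.

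Other settings of the same comparison, such as another normalization or the slide as a block, gave 0 probes, with 2 exceptions. Slide 1 alone gave 0. Leaving out set 7 gave 1 probe. Fitting slide 2 alone gave 245 probes (2.77%), 83 higher and 162 lower, and 26 named genes. There the twins of losartan-treated fetuses are the single array of set 2, which stands apart and was assumed to vary like the others. A p that misses the threshold does not show that the groups are alike. The median standard error of a named gene was 0.163. Differences of that size, and much larger ones, cannot be told here from the spread between fetuses. Even GLRX2, at -1.23 with a standard error of 0.27, did not pass.

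In all 5 genes had estimates past 1 log2 unit in size: ASIP, TNNC2, HBB, GLRX2 and NPY. For ASIP the estimate was -2.90 (SE 1.82), carried by set 8, and for TNNC2 -1.80 (SE 0.92), carried by sets 2 and 4. HBB had 1.72 (SE 0.92), and -0.69 within slide 2 against 3.02 within slide 1. NPY had -1.12, with set 3 its only high value. In these 4 genes the groups overlapped.

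GLRX2, a mitochondrial glutaredoxin, was the lowest by unadjusted p. The twins of losartan-treated fetuses read -0.41, 0.13, -1.01 and 0.21, and those of angiotensin II-treated fetuses -1.30, -1.20, -1.78 and -1.70. The groups did not overlap, which held for 8 named genes in this direction and 2 in the other, and for 98 (1.11%) and 101 (1.14%) of the probes. The estimate was -1.23 (SE 0.27, unadjusted p = 0.00112, adjusted p = 0.9998 over all probes, limma), -1.09 without set 2, -1.09 within slide 1 and -1.62 within slide 2. Both twins of sets 2 and 4 read 0.13 to 0.35, above the other 12 fetuses.

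COL12A1, a collagen of fibril surfaces, was the other non-overlapping one of the 5 lowest. It read 0.21, 1.10, 0.94 and 0.52 in the twins of losartan-treated fetuses and -0.17, 0.14, 0.05 and -0.48 in the others. Its estimate was -0.81 (SE 0.21), -0.67 without set 2, -0.46 within slide 1 and -1.43 within slide 2. BAMBI and BMP6, of bone morphogenetic protein signalling, had -0.48 and -0.53, and CPE, a peptide-processing enzyme, -0.58. In these 3 the groups overlapped. ADRB1 had -0.54 and AGTR1 -0.56, neither passing.

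Of the genes higher in the twins of angiotensin II-treated fetuses, ETS2, a transcription factor, did not overlap: 2.25 to 2.58 against 1.71 to 2.11. Its estimate was 0.45 (SE 0.13), 0.36 without set 2, 0.37 within slide 1 and 0.70 within slide 2. NRF-2 had 0.22, also without overlap. LOC780442 had 0.47, MYC, a driver of growth, 0.26, and MRPL32, of the mitochondrial ribosome, 0.25. None passed.

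**Figure D5:**
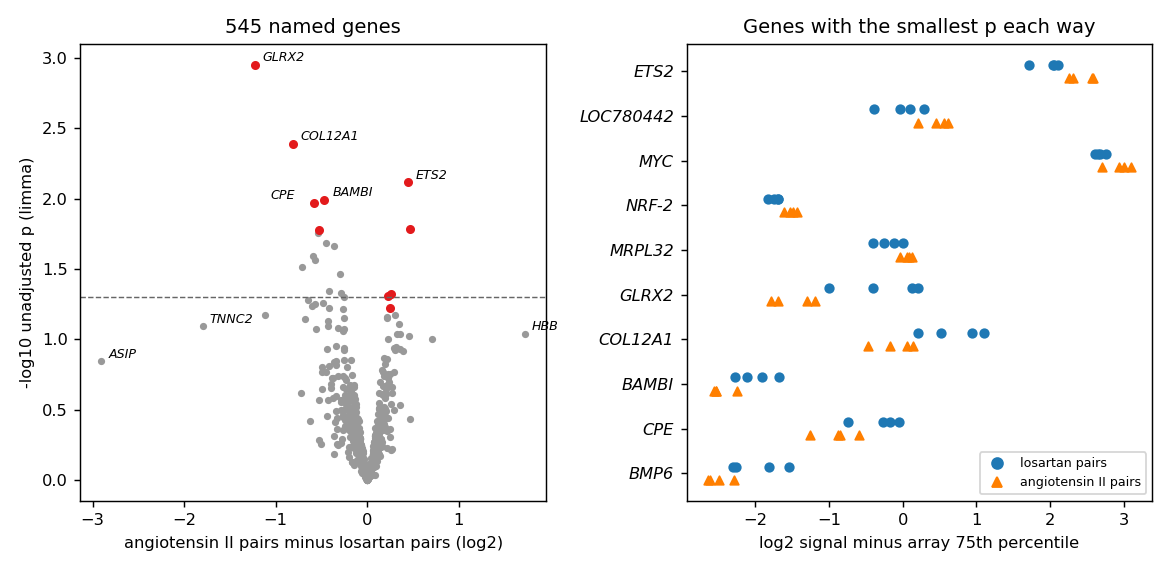
Left, the log2 estimate of each of the 545 named genes tested against -log10 of its unadjusted p, with a dashed line at 0.05 and in red the 5 genes each way with the smallest p. Right, the log2 level of those 10 genes in every untreated fetus: GLRX2, COL12A1, ETS2 and NRF-2 do not overlap between the groups, and no gene passes after adjustment.

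By list, 12 of 12 tested cell cycle genes had an estimate below 0 (median -0.21, against -0.03 over the 545 named genes), and 12 of 14 collagen and matrix genes (median -0.24), against 57.1% of the named genes. Both rest in part on 1 array. Without set 8, 6 of the 12 cell cycle genes were below 0 (median 0.03), against 64.4% of the named genes (median -0.05). Without set 2, 11 of the 14 matrix genes were below 0, with a median of -0.08, and so were 11 of the 12 cell cycle genes, against 49.7% of the named genes. None of the 12 cell cycle genes and 1 of the matrix genes, COL12A1, had an unadjusted p under 0.05. The array measures did not separate the groups. By an exact two-sided permutation test with 70 assignments, where the smallest p possible is 0.0286, the 75th percentile gave p = 0.486, the number of probes well above background 0.743 and the first 2 principal components 0.886 and 0.429 (all adjusted to 0.886). Within slide 1 the difference was 235 fluorescence units for the percentile and 267.5 for the number of probes, and within slide 2 it was -124 and -293, so both turned direction between slides.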

How the data were processed

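RNA of each fetus was hybridised to 1 array of a 1-colour Agilent sheep design (Cy5), on 2 slides. RNA integrity numbers were 7.5 to 10, per the labels. Spot intensity values in the deposited scanner files came from Agilent Feature Extraction 10.7.3.1, which subtracted background and detrended them, per the file headers, with no normalization between arrays. The deposited value table is close to the natural log of the spot signal, with a scaling not given in the sources used here. It served only as an alternative. Flags for well above background were taken from the scanner files, per the file headers.

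Control and outlier spots were left out, spots of a probe averaged, log2 processed signals taken and each array's 75th percentile subtracted. Genes were named through the files' names and accessions against a RefSeq gene table, and 13225 of 15008 probes have no single name. A gene is its brightest probe over the 8 arrays. For the comparison, probes well above background on all 4 arrays of at least 1 group were tested, two-sided, with lmFit and eBayes of limma 3.58.1 (R 4.3.3) and Benjamini-Hochberg adjustment over all probes tested. Residual degrees of freedom were 6 and prior degrees of freedom 3.54. Named were the 20 brightest and 20 most variable genes, 5 genes each way by smallest p where none passed, and list members by spread, p or detection. The 8 members and the gene lists were chosen with earlier results of these data known. Alternatives changed the background correction, normalization, values, filter, slide and row blocks, samples, weights, probe of a gene and arrays left out. Leaving out single arrays for the array measures, and sets 2 and 8 for the list medians, was chosen after seeing the data. The fits were tested on simulated data. Tables and figures were made in Python 3.11.15 with pandas 2.3.3, numpy 2.4.6 and matplotlib 3.10.9. Some withheld items are not reported here.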

Additional observations from a re-analysis of the deposited data

Results flagged for a closer look

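Of 53 values compared over the 8 untreated fetuses (the 20 brightest and 20 most variable genes among them), 10 had 1 fetus far from the others. The measure is the gap between that fetus and its nearest neighbour as a share of the whole range, read against Dixon's limit for a group of 8. Chance alone marks about 1 in 20 such groups, and the most variable genes were chosen for their spread. Set 2 was the fetus apart in 7 of the 10: CXCL1 (0.73), the first principal component (0.717), SLC16A1 (0.675), PTGER1 (0.67), HK1 (0.608), IGFBP5 (0.555) and RPS20 (0.536). Set 8 was apart for VIM (0.729) and MX1 (0.667). Set 3 was apart for NPY (0.527), barely past the limit.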

How the results depend on the processing

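The comparison of the untreated groups gave 0 probes and 0 named genes under each alternative run except slide 2 alone (245 probes, 26 named genes; 1 array against 2) and, for probes, leaving out set 7, so that the range over arrays left out was 0 to 1. At an unadjusted p under 0.05 the probes numbered 297 as reported, 821 in the deposited value table, 647 with the slide as a block and 193 without set 8. Within slide 2 the estimates of GLRX2 and COL12A1 were -1.62 and -1.43 and passed. The numbers in the sample titles did not pair the fetuses (correlations of deviations 0.23, 0.07, -0.15 and 0.13, against -0.26 to 0.21 for other pairs), and the replicate block gave 0 probes, with 278 at an unadjusted p under 0.05. Of the 20 brightest genes 17 to 20 were shared with every alternative. Of the 20 most variable, 9 were shared when dim genes were admitted, 17 with slide means removed, 17 in the deposited value table and 14 to 20 when 1 array was left out. A laxer detection flag gave 11436 probes on all 8 arrays in place of 8287, and leaving out 1 array 8291 to 8482. With 1 array left out, the difference between groups ranged from 7.43 to 158 for the 75th percentile, -71.1 (without set 1) to 226 for probes well above background, -14.2 to 4.94 (without set 2) for the first principal component and 2.60 to 13.9 for the second. The cause of each change was not tested. Dim probes are limited by background: 4946 have no measured level on any untreated array.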
